A study of Mus musculus with 8 samples.

Results

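The mouse genes Ccl3, Ccl4, Ccl5, Ccl6 and Ccl9 lie next to each other on chromosome 11 and encode the macrophage inflammatory protein-1 and RANTES group of CC chemokines. They were taken by name from the annotation, as 5 of 37310 annotated genes, and treated as 1 locus that runs from 50 kb before the start of Ccl5 to 50 kb after the end of Ccl4. In the mm9 build this span is chr11:83289280-83528185, which is 238906 bp long. It held 8 of the 9438 NFATc2 summits of the series. The cells were D1, a long-term dendritic cell (DC) line from C57BL/6 mouse spleen, studied by chromatin immunoprecipitation and sequencing (ChIP-seq). For NFATc2, which the sample labels call NFAT1, the cells carried the protein with a V5 tag from a lentiviral vector, were sorted for low expression of the GFP reporter, and received 10 μg/ml curdlan for 30 min. Curdlan is a β-glucan that activates the receptor dectin-1. The histone mark H3K4me3 was measured in non-treated (NT) cells, in cells given 10 μg/ml curdlan for 2 h, and in cells given curdlan for 2 h with FK506, a calcineurin inhibitor whose dose the labels do not state. Each of these 4 conditions had 1 ChIP library and 1 input library. There was no NFATc2 library from unstimulated or FK506-treated cells among the samples used here, so binding is described in 1 condition and the mark in 3.

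Chemokines are small secreted proteins that guide leukocytes, and CC chemokines of this group draw monocytes, T cells, NK cells and immature DCs to inflamed tissue. They act through G protein-coupled receptors that several of them share, among them Ccr1. DCs are an early source of them after contact with microbes. NFAT proteins enter the nucleus once calcineurin has removed phosphates from them, and they bind DNA with a GGAAA core, often beside AP-1. H3K4me3 is a mark of nucleosomes around the start sites of genes that are active or ready to be transcribed.

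Within the locus, Ccl5 (RANTES, a ligand of Ccr1 and Ccr3) came at chr11:83339280-83344020 on the minus strand. It was followed by Ccl9 (MIP-1γ, a ligand of Ccr1) at chr11:83386421-83392138 and by Ccl6 (also called C10, a ligand of Ccr1) at chr11:83401384-83406589, both on the minus strand. Ccl3 (MIP-1α, a ligand of Ccr1) was at chr11:83461346-83462857 on the minus strand and Ccl4 (MIP-1β, an attractant of T cells and monocytes) at chr11:83476086-83478185 on the plus strand. Ccl3 and Ccl4 therefore pointed away from each other, with 5′ ends 13.2 kb apart. The 5′ ends of Ccl6 and Ccl3 were 56.3 kb apart. In all, 17 annotated genes had a transcription start site (TSS) in the span, and 9 of them were protein-coding and 6 were pseudogenes.

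The 200 bases before the 5′ end of each member are shown because the strongest NFATc2 sites of the locus fell there and because the 5 promoters differ in the motifs they hold. They were read from the mm9 genome in the direction of each gene. Capitals mark every match, on either strand, to GGAAAA (NFAT), TGANTCA (AP-1), GAGGAAG (PU.1), the kB sequence (GGG, any 2 bases, then TTTCC) or the interferon response sequence (GAAA, any 2 bases, then GAAA). N stands for any base.
Ccl3 promoter (chr11:83462858-83463057, minus strand): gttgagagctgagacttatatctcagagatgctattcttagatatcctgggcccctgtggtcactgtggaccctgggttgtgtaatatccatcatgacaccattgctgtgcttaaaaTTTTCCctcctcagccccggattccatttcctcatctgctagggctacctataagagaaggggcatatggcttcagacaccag
Ccl4 promoter (chr11:83475886-83476085, plus strand): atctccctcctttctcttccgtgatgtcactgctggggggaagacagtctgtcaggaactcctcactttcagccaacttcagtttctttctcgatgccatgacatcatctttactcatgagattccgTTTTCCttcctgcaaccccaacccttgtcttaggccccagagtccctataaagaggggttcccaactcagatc
Ccl5 promoter (chr11:83344021-83344220, minus strand): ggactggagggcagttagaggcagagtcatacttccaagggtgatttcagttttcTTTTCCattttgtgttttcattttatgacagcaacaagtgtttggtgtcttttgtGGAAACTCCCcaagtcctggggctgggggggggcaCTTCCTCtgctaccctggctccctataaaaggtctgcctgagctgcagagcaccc
Ccl6 promoter (chr11:83406590-83406789, minus strand): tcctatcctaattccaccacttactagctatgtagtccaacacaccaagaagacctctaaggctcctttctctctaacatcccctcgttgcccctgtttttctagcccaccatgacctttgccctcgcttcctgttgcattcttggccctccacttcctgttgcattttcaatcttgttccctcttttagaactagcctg
Ccl9 promoter (chr11:83392139-83392338, minus strand): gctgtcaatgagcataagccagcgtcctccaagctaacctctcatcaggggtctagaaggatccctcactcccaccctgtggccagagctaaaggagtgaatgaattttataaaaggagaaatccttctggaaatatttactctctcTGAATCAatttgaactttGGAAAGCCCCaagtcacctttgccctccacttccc

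GGAAAA was found in 3 of the 5 promoters, against 16.5% of 22380 protein-coding promoters of the same length. In Ccl3 the match began 83 bases before the 5′ end and in Ccl4 it began 73 bases before it, both on the strand opposite to the gene. In Ccl5 it began 145 bases before the 5′ end. Ccl5 and Ccl9 each held a match to the kB sequence, which 1.13% of all promoters held, starting 90 and 35 bases before their 5′ ends. Ccl9 was the member with a TGANTCA match (4.8% of all promoters) and Ccl5 the member with a GAGGAAG match (8.82%). The Ccl6 promoter held none of the 5 sequences, and none of the 5 members had the interferon response sequence (2.66% of all promoters). Aligned end to end, the promoters of the 10 pairs of members were between 45.0 and 54.0% identical, with a median of 50%. The coding sequences were between 44.2% and 68.5% identical, and the most alike pairs were Ccl3 with Ccl4 (68.5%) and Ccl9 with Ccl6 (65.9%). The promoters of these pairs, 52.5 and 50% identical, lay within the range of the other pairs.

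NFATc2 binding in the locus was concentrated at Ccl3 and Ccl4. The summit nearest to Ccl3 was at position 83462937, 80 bp upstream of its 5′ end, in a peak of 400 tags (exact 95% Poisson interval from 362 to 441) enriched 22.9 times over the local background, and its p-value from the peak caller was 9.08e-56. At Ccl4 the nearest summit was at 83475930, 156 bp upstream, in a peak of 491 tags (449 to 536), enriched 22.2 times, with a p-value of 3.8e-69. Among the 9438 peaks of the list, these were at percentiles 99.4 and 99.7 by tags and 86.0 and 84.8 by fold enrichment. Both peaks were broad. They were 3785 and 3779 bp long, against a median of 1063 bp over the list, and each covered its gene from the promoter to past the 3′ end. Per kb of peak they held 106 and 130 tags, and the other sites of the locus between 42.2 and 92.3. Together the 2 peaks held 891 of the 1525 NFATc2 tags of the locus (58.4%). The tags are counts without replicates, so the intervals cover counting error only.

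The other 6 sites had between 38 and 180 tags. A site of 180 tags lay 3.58 kb upstream of Ccl4, in a peak 3485 bp long with a fold enrichment of 9.28. A site of 129 tags was intergenic, 18.6 kb downstream of the Ccl3 start, and its fold enrichment of 20.5 was close to that of the promoter peaks. A pair of sites with 95 and 152 tags lay 7.72 and 23.8 kb upstream of Ccl6, in introns of the long non-coding RNA gene E230016K23Rik, which runs along the opposite strand over Ccl6. The site of 40 tags was 7.72 kb upstream of Ccl5 in intergenic sequence. The weakest site, with 38 tags and a p-value of 3.33e-06, was within Ccl6. It lay 3.24 kb inside the gene from its 5′ end and 27 bp from the start of a shorter Ccl6 transcript with a retained intron, in an exon of that transcript, so it is not a site at the main Ccl6 promoter. Just past the far end of the span, by 83 bp, was a further summit at 83528268 with 40 tags and a fold enrichment of 21.2, nearest to Expi. The nearest summit before the span was 409 kb away.

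**Figure D1:**
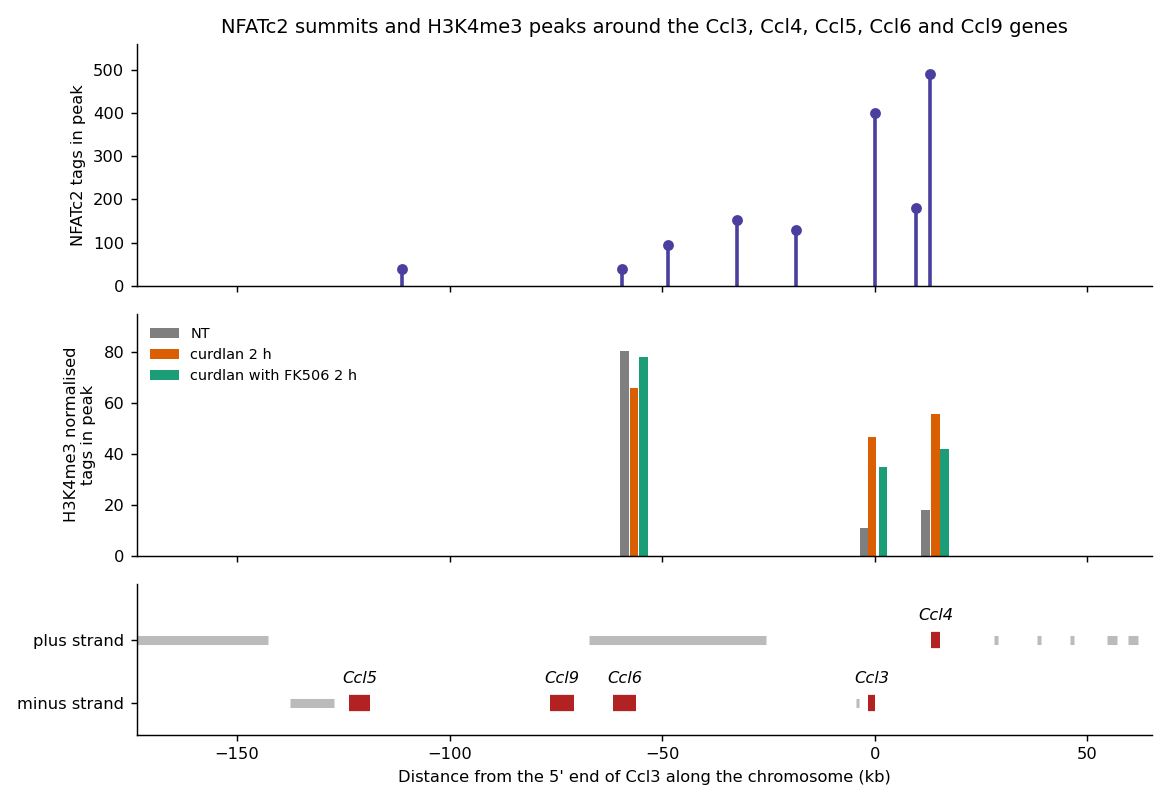
NFATc2 summits (top, tags in each peak after 30 min of curdlan), H3K4me3 peaks (middle, tags per 1000000 ChIP tags) and genes (bottom, members in red, other genes in grey) by distance in kb from the 5′ end of Ccl3. The bars of 1 promoter are set side by side around the summit. The NFATc2 sites of 400 and 491 tags stand at Ccl3 and Ccl4, and the H3K4me3 peaks stand at Ccl6, Ccl3 and Ccl4, with none at Ccl5 or Ccl9.

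Of the members, Ccl3 and Ccl4 had a summit within 1 kb of their 5′ end, and Ccl6 had one within 1 kb of its internal TSS, so the count by any annotated TSS was 3 of 5, against 3.76% of all 37310 genes. Within 10 kb there were 4 of 5 members, against 13.2% of genes, and within 30 kb all 5 members, against 26% of genes. Ccl9 was the member without a site of its own: its nearest summit, 11.2 kb upstream, was the site within Ccl6. Windows as long as the span were laid end to end over the genome for comparison. Of 11037 windows, 66.4% held no summit and 0.815% held 8 or more, and the fullest window held 21. When the threshold was set to a p-value of 1e-10, 4 of the 8 summits were left: those at Ccl3 and Ccl4, the site 23.8 kb upstream of Ccl6 and the site 18.6 kb downstream of the Ccl3 start. The nearest such summit was then 86.4 kb from Ccl5 and 38.3 kb from Ccl9, both upstream.

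The sequence under the summits was searched for the same motifs. GGAAAA was within 100 bp of 7 of the 8 summits, against 45.6% of all summits. At Ccl3 the summit fell inside the match itself (chr11:83462935-83462940), which is the TTTTCC printed in capitals in the Ccl3 promoter. At Ccl4 the match at chr11:83476013-83476018 was 85 bp from the summit, on the side of the gene. The site 3.58 kb upstream of Ccl4 was the site without GGAAAA within 100 bp. It held the interferon response sequence 1 bp from the summit, which was found at 6.5% of all summits and also at the site within Ccl6. That match, printed below as TTTCCTTTTC, contains the shorter GGAAA core when read on the minus strand. The site therefore lacked GGAAAA near its summit but not the core. TGANTCA was within 100 bp of 2 of 8 summits, against 21.8% of all summits. These were the site upstream of Ccl5 and the site 23.8 kb upstream of Ccl6, which held 2 copies. Both also held GGAAAA, a combination present at 8.34% of all summits. No summit of the locus had the kB sequence within 100 bp (2.27% of all summits), although the Ccl4 peak held 1 copy further out. GAGGAAG was within 100 bp of 1 summit, the site 23.8 kb upstream of Ccl6, against 20.3% of all summits.

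For the comparison of these sites, the 101 bases centred on 4 summits outside the promoters are shown from the plus strand of mm9, with capitals for the same 5 sequences.
Site 7.72 kb upstream of Ccl5 (chr11:83351689-83351789): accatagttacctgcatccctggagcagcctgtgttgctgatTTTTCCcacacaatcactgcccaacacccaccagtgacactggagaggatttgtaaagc
Site 23.8 kb upstream of Ccl6 (chr11:83430385-83430485): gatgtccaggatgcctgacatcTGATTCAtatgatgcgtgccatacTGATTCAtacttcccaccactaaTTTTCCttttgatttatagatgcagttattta
Site 18.6 kb downstream of the Ccl3 start (chr11:83444205-83444305): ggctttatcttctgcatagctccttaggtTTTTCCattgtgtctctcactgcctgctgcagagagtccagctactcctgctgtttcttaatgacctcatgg
Site 3.58 kb upstream of Ccl4 (chr11:83472453-83472553): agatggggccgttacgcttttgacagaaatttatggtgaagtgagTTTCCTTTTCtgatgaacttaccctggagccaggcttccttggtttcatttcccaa
GGAAAA stood within 25 bp of the summit in the first 3 of these, at 6, 21 and 19 bp, while the broad Ccl4 upstream peak had its copies elsewhere in the peak. The TGANTCA match of the Ccl5 upstream site, 53 bp from its summit, reaches past the edge of the printed bases. A match is a description of the letters at a site and does not show which factor bound there.

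H3K4me3 marked 3 of the 5 members in every condition. Ccl6, Ccl3 and Ccl4 each had a peak within 1 kb of their TSS in NT, with curdlan and with curdlan plus FK506, and Ccl5 and Ccl9 had none in any of the lists. Among all protein-coding genes, 48.9, 48.8 and 48.7% had such a peak in the respective lists. The edge of the nearest H3K4me3 peak was between 54.7 and 55.1 kb from the Ccl5 start and between 10.5 and 10.7 kb from the Ccl9 start. A peak list holds no value where no peak was called, and the weakest peaks called had 18, 26 and 23 tags, so the mark at Ccl5 and Ccl9 was below the threshold rather than shown to be absent. The 3 peaks of the locus covered 11.1, 15.9 and 14.3 kb in NT, curdlan and curdlan plus FK506, respectively. Per 1000000 ChIP tags of the library, their density was 9.87, 10.6 and 10.8 tags per kb of peak.

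Ccl6 was the most strongly marked member before stimulation. For NT, curdlan and curdlan plus FK506, in that order, its peak held 1339, 1402 and 1522 tags, which is 80.4, 65.9 and 78.2 tags per 1000000 ChIP tags of the library, called normalised tags from here on. By tags, the Ccl6 peak was at percentile 90.3, 86.2 and 91.4 of its list. The fold enrichment was 39.5, 36.5 and 33.4. By normalised tags the lowest level was with curdlan, where the counting interval (62.5 to 69.4) lay below those of NT (76.1 to 84.8) and of curdlan plus FK506 (74.3 to 82.2). The median marked gene also had fewer normalised tags with curdlan, 0.919 times its NT level. Relative to that gene, Ccl6 with curdlan was at 0.892 times its NT level (0.827 to 0.962). By fold enrichment the lowest level was with curdlan plus FK506.

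Ccl3 and Ccl4 began with weak peaks that were larger after curdlan. The Ccl3 peak had 179, 991 and 677 tags in the same order, or 10.7, 46.5 and 34.8 normalised tags. Its fold enrichment was 7.17, 43.0 and 19.5. The Ccl4 peak had 302, 1183 and 812 tags, or 18.1, 55.6 and 41.7 normalised tags. Its fold enrichment was 13.1, 49.0 and 47.7. In NT, the Ccl3 peak was at percentile 26.3 of its list by tags and at percentile 1.7 by fold enrichment, and with curdlan at 73.2 and 33.4. The Ccl4 peak was at percentile 38.3 by tags and 15.2 by fold enrichment in NT, and at 80.5 and 39.7 with curdlan. For an order of the members, tags were divided by the length of the peak. In NT the density was 261 tags per kb at Ccl6 (exact 95% Poisson interval from 247 to 275), 106 at Ccl4 (94.1 to 118) and 58.2 at Ccl3 (50 to 67.4). With curdlan it was 283 at Ccl6 (268 to 298), 201 at Ccl4 (190 to 213) and 196 at Ccl3 (184 to 208), so that Ccl4 and Ccl3 could not be ordered within counting error. With curdlan plus FK506 it was 318 at Ccl6 (302 to 334), 168 at Ccl4 (156 to 180) and 146 at Ccl3 (135 to 158). Here the intervals of Ccl4 and Ccl3 overlapped at their edges only. Such an overlap does not show that the 2 were equal, and no interval for their ratio was computed.

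**Figure D2:**
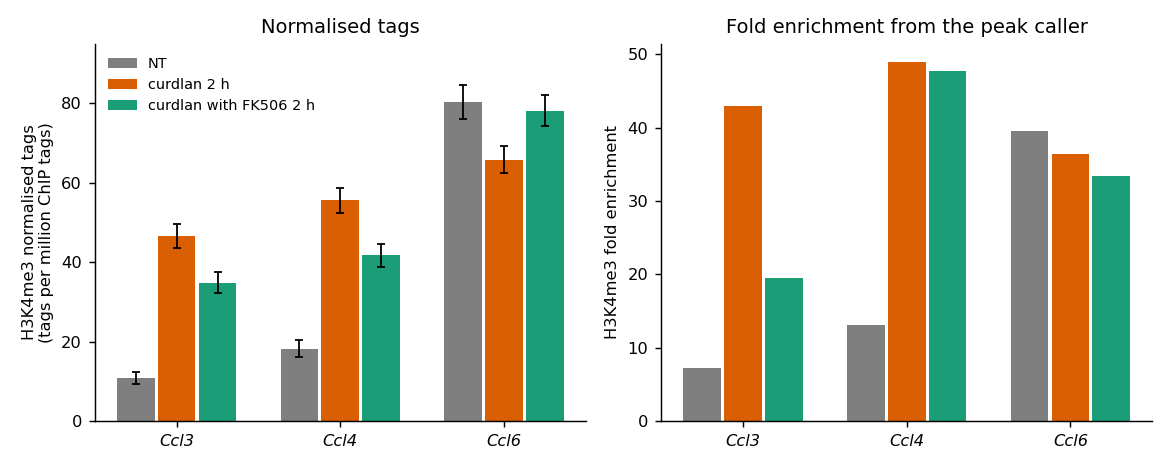
H3K4me3 at the 3 marked members in NT, curdlan 2 h and curdlan with FK506 2 h, 1 library each, as normalised tags, that is tags per 1000000 ChIP tags (left, error bars are exact 95% Poisson intervals for counting error) and as the fold enrichment given by the peak caller (right, no error available). Ccl3 goes from 10.7 to 46.5 and 34.8 normalised tags and Ccl4 from 18.1 to 55.6 and 41.7, while Ccl6 stays between 65.9 and 80.4.

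With curdlan over NT, the rate of tags was 4.33 times as high at Ccl3 (exact 95% interval from 3.69 to 5.11) and 3.07 times as high at Ccl4 (2.70 to 3.49). At Ccl6 it was 0.819 times the NT rate (0.760 to 0.884). These intervals come from counts in 1 library per condition and do not hold the variation between cultures. To place the members among all genes, log2 ratios were centred on the median of the 12369 genes with a promoter peak in both lists. The centred log2 ratio of fold enrichment was 1.85 at Ccl3, 1.17 at Ccl4 and −0.84 at Ccl6. A value of 1 or more was reached by 2 of the 3 marked members, against 4.07% of genes. By normalised tags the centred values were 2.24, 1.74 and −0.16, and 1.71% of genes reached 1. Only 12 genes had a larger centred value than Ccl3 by fold enrichment and 16 by normalised tags. For Ccl4 these numbers were 253 and 43. By normalised tags per kb of peak, which allows for the longer peaks, Ccl3 stood at 1.58 and Ccl4 at 0.76, under the limit.

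**Figure D3:**
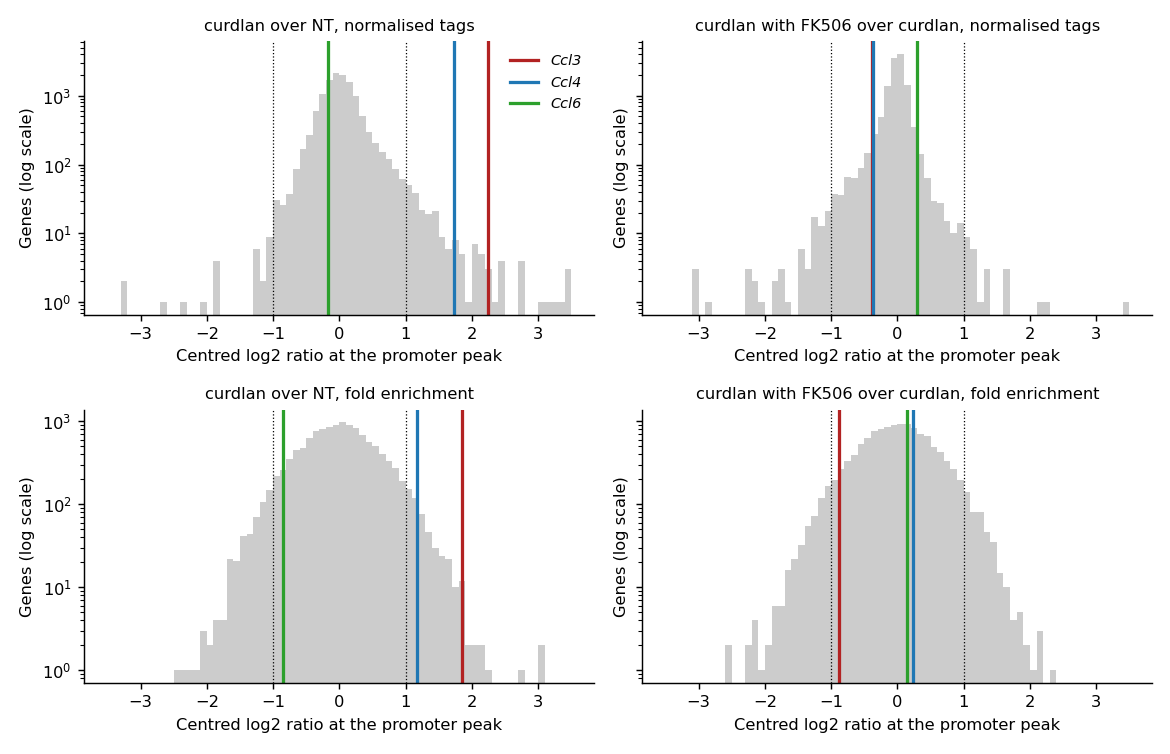
Distribution over all genes of the centred log2 ratio of H3K4me3 at the promoter peak, for curdlan over NT (left) and curdlan with FK506 over curdlan (right), by normalised tags (top) and by fold enrichment (bottom). The vertical axis is logarithmic, dotted lines mark −1 and 1, values beyond 3.5 are drawn at 3.5, and coloured lines mark Ccl3, Ccl4 and Ccl6. Ccl3 lies at 2.24 and 1.85 on the left, and the Ccl3 and Ccl4 lines coincide near −0.38 and −0.37 at the top right.

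The curdlan peaks at Ccl3 and Ccl4 were also longer. The Ccl3 peak was 3076 bp long in NT, 5061 bp with curdlan and 4628 bp with curdlan plus FK506. The Ccl4 peak was 2859, 5874 and 4843 bp long. The ratio of curdlan to NT length was 1.65 at Ccl3, 2.05 at Ccl4 and 0.966 at Ccl6, and 5.75% of genes reached 1.5. The added length lay mostly downstream. Past the 3′ end of Ccl3 the peak reached 264 bp in NT, 2221 bp with curdlan and 1687 bp with curdlan plus FK506, whereas upstream of the 5′ end it reached 1300, 1328 and 1429 bp. Past the 3′ end of Ccl4 the corresponding reach was 39, 2400 and 1758 bp, and upstream it was 720, 1374 and 985 bp. With curdlan, the Ccl3 peak came within 1 kb of the start of the pseudogene Rpl9-ps1, which had no promoter peak in NT, so the curdlan peak of that pseudogene is the Ccl3 peak. In each list the H3K4me3 summit lay inside the gene, 267 to 619 bp downstream of the Ccl3 start and 932 to 1018 bp downstream of the Ccl4 start, and thus downstream of the NFATc2 summits. The length at which a peak is called depends on its height and on the depth of the library, and their part in the longer peaks was not tested.

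**Figure D4:**
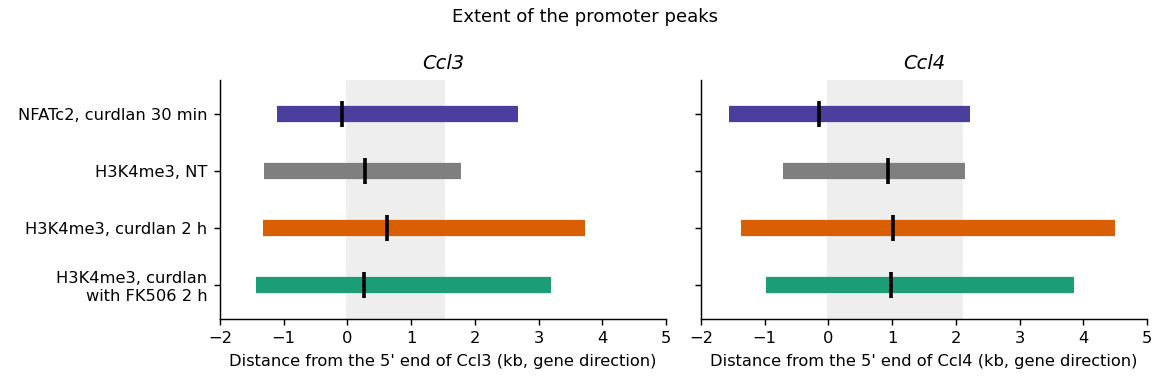
Extent of the NFATc2 peak and of the H3K4me3 peaks at Ccl3 (left) and Ccl4 (right), in kb from the 5′ end in the direction of the gene. Bars run from start to end of each peak, black ticks mark summits and grey shading marks the gene. The H3K4me3 bars reach 1.78 kb downstream of the Ccl3 start in NT and 3.73 kb with curdlan, and 2.14 and 4.5 kb at Ccl4.

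With FK506 the mark at Ccl3 and Ccl4 was between the NT and curdlan levels by tags. Relative to curdlan alone, the rate of tags was 0.747 at Ccl3 (exact 95% interval from 0.676 to 0.825) and 0.751 at Ccl4 (0.686 to 0.821), and 1.19 at Ccl6 (1.10 to 1.28). Centred on the median of 12364 genes, the log2 ratios of normalised tags were −0.38, −0.37 and 0.29. None of the 3 reached −1, which 0.615% of genes did, and 560 and 576 genes had lower values than Ccl3 and Ccl4. By normalised tags per kb of peak, which allows for the shorter peaks with FK506, the centred values were −0.28, −0.12 and 0.31. By fold enrichment the centred values were −0.87 at Ccl3, 0.23 at Ccl4 and 0.14 at Ccl6, and 4.08% of genes were at −1 or below. Normalised tags and fold enrichment therefore differed for Ccl4. Its tags were lower with FK506 while its fold enrichment, 49.0 and 47.7, was nearly the same in both lists. Fold enrichment also depends on the input library, and the ratio of ChIP to input tags was 1.38 in NT, 2.29 with curdlan and 1.96 with FK506, whose part in this was not tested. Of the difference between curdlan and NT in normalised tags, 67.1% at Ccl3 and 63.0% at Ccl4 was present with FK506. In fold enrichment these shares were 34.3 and 96.5%. All of these shares come from levels that were not centred. The median gene had 1.66 times its NT fold enrichment with curdlan and 1.37 times with curdlan plus FK506. In centred fold enrichment over NT, Ccl3 was at 1.85 with curdlan and 0.99 with curdlan plus FK506, and Ccl4 at 1.17 and 1.41.

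Curdlan with FK506 was also set beside NT. The rate of tags was 3.24 times that of NT at Ccl3 (2.74 to 3.84) and 2.30 times at Ccl4 (2.01 to 2.63). At Ccl6 it was 0.973 times that of NT (0.903 to 1.05), an interval that holds 1. Relative to the median gene, the Ccl6 ratio was 1.10 (1.02 to 1.18), which does not hold 1. By fold enrichment the centred log2 ratios were 0.99, 1.41 and −0.70, so Ccl4 passed 1 and Ccl3 lay just under it, against 3.39% of 12345 genes that passed. By normalised tags they were 1.87, 1.37 and 0.13, and 1.15% of genes passed. The 3 comparisons share libraries with each other, so their values are not independent.

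Of the 8 NFATc2 summits, 3 lay inside an H3K4me3 peak: those at Ccl3, at Ccl4 and within Ccl6. These were the same 3 in the NT list, the curdlan list and the list with FK506, where 23.8, 23.3 and 22.5% of all NFATc2 summits lay inside a peak. The binding at Ccl3 and Ccl4 thus fell on promoters that carried a weak peak before stimulation. Of the other 5 sites, 3 were intergenic and 2 lay in introns of E230016K23Rik, and they had no H3K4me3 peak over them in any condition. NFATc2 was measured at 30 min and the mark at 2 h.

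Further chemokine genes, taken from fixed lists, were described in the same way. In the monocyte chemoattractant cluster, which is also on chromosome 11, 1 of 6 genes (Ccl7) had an NFATc2 summit within 1 kb, and 2, 3 and 3 genes had an H3K4me3 promoter peak in NT, with curdlan and with FK506. Ccl2, a ligand of Ccr2, had 1119, 991 and 886 tags, without the step seen at Ccl3. Its centred log2 ratio of curdlan over NT was −0.41 by normalised tags and −0.80 by fold enrichment. For curdlan with FK506 over curdlan it was 0.01 and 0.77. Ccl12, another ligand of Ccr2, had 155, 285 and 190 tags. Ccl1, a ligand of Ccr8, had no peak in NT and 489 and 122 tags with curdlan and with FK506. The centred log2 ratio of these 2 levels was −1.83 by normalised tags and −0.34 by fold enrichment. Of 11 listed genes of the CXC chemokine cluster, Cxcl2, a neutrophil attractant, was the only gene with a promoter peak in any condition. CXC chemokine genes outside this cluster were not examined. It had 179, 861 and 699 tags and a summit 286 bp upstream of its TSS. Among 6 further CC chemokines with a unique match in the annotation, Ccl17 and Ccl22, both ligands of Ccr4, had peaks in every list. Their tags were 435, 1297 and 895 for Ccl17 and 125, 823 and 619 for Ccl22. The nearest NFATc2 summit was 97 bp upstream of Ccl17 and 40.8 kb from Ccl22. By normalised tags the centred log2 ratio of curdlan over NT was 2.03 at Cxcl2, 1.35 at Ccl17 and 2.49 at Ccl22. By fold enrichment it was 0.83, 1.70 and 0.67, so that Cxcl2 and Ccl22 passed 1 by normalised tags alone and Ccl17 by both measures.

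Among receptors of the members, Ccr1 was marked at 1327, 1300 and 1281 tags, with an NFATc2 summit 12 bp from a TSS. The centred log2 ratio of curdlan over NT at Ccr1 was −1.09 by fold enrichment, where 3.81% of genes were at −1 or below. By normalised tags it was −0.26, under the limit. Ccr3 and the decoy receptor gene Ccbp2 had no promoter peak in any list. The same mark was also read at marker genes of dendritic and myeloid cells and of other cells. Of 13 listed dendritic and myeloid markers 11 had a unique match in the annotation. A promoter peak in every list was present at 10 of these (Flt3 had none), and at 0 of 9 markers of other cells. Among all protein-coding genes, 48.9, 48.8 and 48.7% had a promoter peak in NT, with curdlan and with curdlan plus FK506. The markers were of dendritic and myeloid cells together, so these counts do not separate DCs from other myeloid cells.

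Genes with the most similar pattern were sought among 10742 protein-coding genes with peaks in all 3 lists, by the distance between their 2 centred log2 ratios of fold enrichment and those of a member. Nearest to Ccl3 were Lrpprc, Hras1 and Lrrc56 (which share a peak), Nsfl1c and Arl5a. Nearest to Ccl4 were Rpl13, H3f3a, Fbl, Rufy1 and Ppm1f. Nearest to Ccl6 were Khk, Fam38a, Esr1, Sit1 and Aff1. The gene nearest to Ccl3, Lrpprc, had 46.6, 44.0 and 41.1 normalised tags in NT, with curdlan and with FK506, against 10.7, 46.5 and 34.8 at Ccl3. Rpl13, nearest to Ccl4, had 56.8, 64.4 and 58.9, against 18.1, 55.6 and 41.7 at Ccl4. Khk, nearest to Ccl6, had 20.5, 15.2 and 17.3, against 80.4, 65.9 and 78.2 at Ccl6. Lrpprc thus lacked the higher level with curdlan seen in the tags of Ccl3, while Khk, like Ccl6, was lowest with curdlan. When normalised tags were used in place of fold enrichment, a choice made after seeing these values, the 5 genes nearest to Ccl3 were Leprel1, P2ry2, Fam167a, Bean1 and Ccl22. The 5 nearest to Ccl4 were Ralgds, Stat5a, Grhl1, Rilpl2 and Cd9. Among these, Ralgds had 16.9, 48.5 and 34.6 normalised tags, close to the values of Ccl4. The nearest NFATc2 summit was 108 bp upstream of Ralgds, 122 bp upstream of Stat5a and 82 bp upstream of Rilpl2, but 3.32 kb from Cd9 and 288 kb from Grhl1. For the 5 genes nearest to Ccl3 by normalised tags it was between 1.75 and 40.8 kb away. In the lists by fold enrichment, the distance was between 24.1 and 1338 kb for the genes nearest to Ccl3. For those nearest to Ccl4 it was 180 bp at Fbl and between 2.07 and 61.6 kb at the rest. The share of close summits among all marked genes was not computed. Whether closeness to a summit goes with either pattern was therefore not tested. The lists by the 2 measures had no gene in common for Ccl3 or Ccl4.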

How the data were processed

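ChIP-seq peak lists of D1 cells were analysed for NFATc2-V5 and, in 3 conditions, for H3K4me3. The authors mapped reads with bowtie to mm9 and called peaks per library, each against its input, using MACS at a p-value threshold of 1e-05. The headers of the files name version 1.4.2. The deposited lists give, for each peak, its position, the count of tags (not normalized), a score made from the p-value (its −log10 multiplied by 10), the fold enrichment (a ratio to the local background) and an FDR as a percent. Per the file headers, the totals were between 14377535 and 21289349 ChIP tags and between 9309800 and 12085435 input tags.

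The annotation was Ensembl release 65 on mm9. The H3K4me3 level of a gene was that of the peak with the most tags overlapping 1 kb around any TSS. Log2 ratios were centred on the median over the genes marked in both lists, which was 0.73 for curdlan over NT, −0.27 for curdlan with FK506 over curdlan and 0.45 for curdlan with FK506 over NT by fold enrichment, and −0.12, −0.04 and −0.17 by tags per 1000000 ChIP tags. A centred value of 1 was the limit for naming a change. Tag intervals were exact Poisson and those of rate ratios exact conditional binomial (Clopper-Pearson), at 95%. With 1 library per condition no p-value between conditions was computed. A motif counted where it lay on any strand up to 100 bp from the summit, and promoters were aligned globally. The tools were Biopython 1.88, matplotlib 3.10.9, Python 3.11.15, scipy 1.17.1, pandas 2.3.3 and numpy 2.4.6, and the functions were tested on simulated data. The members, the gene lists and the motifs were chosen with earlier results of these data known. The genes named are the members, the genes of the span, those of the lists and, for each marked member, the 5 genes with the nearest pattern. For 1 gene of these lists the result is not reported here.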

Additional observations from a re-analysis of the deposited data

How the results depend on the processing

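No value past the limit changed sign under another setting. Under the limit, the change at Ccl4 for curdlan with FK506 over curdlan, 0.23, was between −0.37 and −0.04 by either tag measure, by summed tags or without centring. At Ccl6, 0.14 became −0.13 without centring, and −0.70 for curdlan with FK506 over NT became 0.13 by tags and 0.26 per kb. Of the 8 NFATc2 summits, 4 remained with a p-value of 1e-10 or less, and 2 members in place of 4 then had a summit within 10 kb. The H3K4me3 peaks summed over the 3 lists were 9, and 21 with a flank of 100 kb. With normalised tags per kb, 1 marked member in place of 2 passed the limit for curdlan over NT. Without centring, 1 member in place of 0 passed it for curdlan with FK506 over curdlan. For curdlan with FK506 over NT, 2 members in place of 1 passed it by normalised tags, by the sum of tags over all peaks and without centring. In total 28 of 36 alternatives for the main counts gave a value within 1.5 times the reported one. For the single values by member or by list, 43 alternatives stayed the same and 41 moved. The same meant an equal distance, a peak count within 1.5 times, or a log2 change within the counting error of the tag rate ratio. That error was applied to main values of fold enrichment, for which no counting error was available. Counting H3K4me3 peaks by overlap with the span, an alternative added after seeing the data, gave 10, because the Taf15 peak with FK506 reached 71 bp into it. No paired analysis was possible because each condition had 1 library, and for the same reason no replicate could be left out. The tag counts limit the precision of each ratio, and variation between cultures could not be measured.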
